A study of Mus musculus with 7 samples.

Results

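The genes described here are 41 genes of mitosis, among the 50600 genes counted in the series. They were taken by symbol, and every symbol was found once in each of the 7 library tables. They are the mitotic cyclins and Cdk1, the Aurora, Polo and Ttk kinases, and the genes of the spindle checkpoint, the anaphase-promoting complex, the kinetochore, the spindle, cytokinesis and condensin, with Foxm1, Top2a and Mki67. Genes with Kif symbols were left out by the choice of members, while Cenpe, a motor protein of the kinetochore, is among the 41.

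The tumours came from ECD transgenic mice, that is, mice that carry a transgene of Ecd (ecdysoneless), a cell cycle regulator. Tumours 1a and 1b were adenosquamous carcinomas, tumour 3 was a spindle cell carcinoma and tumour 4 a papillary carcinoma, and they were set against mammary glands 1, 2 and 3, which the labels call control glands. The sources used here do not give strain, age, the promoter that drives the transgene or the genotype of the control mice. RNA was taken from glands or from the middle of a tumour. Each tumour type other than the adenosquamous one is 1 tumour, and the labels leave it unsaid if 1a and 1b share an animal, so p-values measure the spread between these tissue samples.

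A cell enters mitosis when cyclin B and Cdk1 become active. Condensin and topoisomerase II then compact the chromosomes, the kinetochore joins each centromere to the spindle, and the checkpoint holds the anaphase-promoting complex until every kinetochore is attached. Most of these genes are transcribed late in the cell cycle, in G2 and mitosis, under the DREAM and MuvB complexes and Foxm1, so their mRNA is low in resting tissue and is widely used as a sign of dividing cells in breast tumours.

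Total counts were 5420562 to 28638143 in the tumours and 5148438 to 35631279 in the glands. Depth matters for these genes in gland 1, where 1 count was worth 0.354 CPM (counts set to a common library total, with TMM scaling) and 3 counts were worth 1.06 CPM. There 19 of the 41 genes had no count, which allows a level of up to 1.06 CPM, while no other library lacked a count of any of them. All 41 genes had at least 10 counts in each tumour, but only 10 had them in each gland, so the other 31 passed the filter on low counts through the tumours. The tissues also differed in make-up. The summed level of 8 adipocyte markers was 7.88 to 140.5 CPM in the tumours and 3034 to 6303 CPM in the glands. That of 8 skeletal muscle markers was 1.15 to 211.7 CPM in the tumours, 13960 and 27188 CPM in glands 1 and 3, and 21.9 CPM in gland 2. Mitochondrial genes took 18.3% to 32.6% of counts in the tumours and 48.4% to 64.8% in the glands. Apart from a fit with the mitochondrial genes left out, the part of these differences in the results below was not tested. Fewer dividing cells and less of these mRNAs per cell cannot be told apart in whole tissue.

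Nearly all of the mitosis genes were higher in the tumours than in the glands. By edgeR's quasi-likelihood test with Benjamini-Hochberg adjustment over 14149 genes, 37 of the 41 rose in the tumours and 0 fell. Of all genes tested, 3.9% rose and 4.57% fell, 8.47% in either direction. DESeq2 called 39 of the 41 higher (10% of all genes it tested) and limma-voom 37 (4.46%). With the mitochondrial genes left out, edgeR called 37 of the 41 higher (3.61%), with a median log2 fold change of 4.12. At an unadjusted p under 0.05, 39 were higher and none lower, against 15.8% of all genes tested that were higher. The median log2 fold change of the 41 genes was 4.15, with a range of 0.66 to 5.68, beside a median of 0.12 over all genes tested. For 23 genes it was 4 or more, for 15 it lay between 2 and 4, and for 3 it was under 2. In 39 genes every tumour lay above every gland, which held for 16.3% of all genes tested. The exceptions were Bub3 and Smc4.

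**Figure D1:**
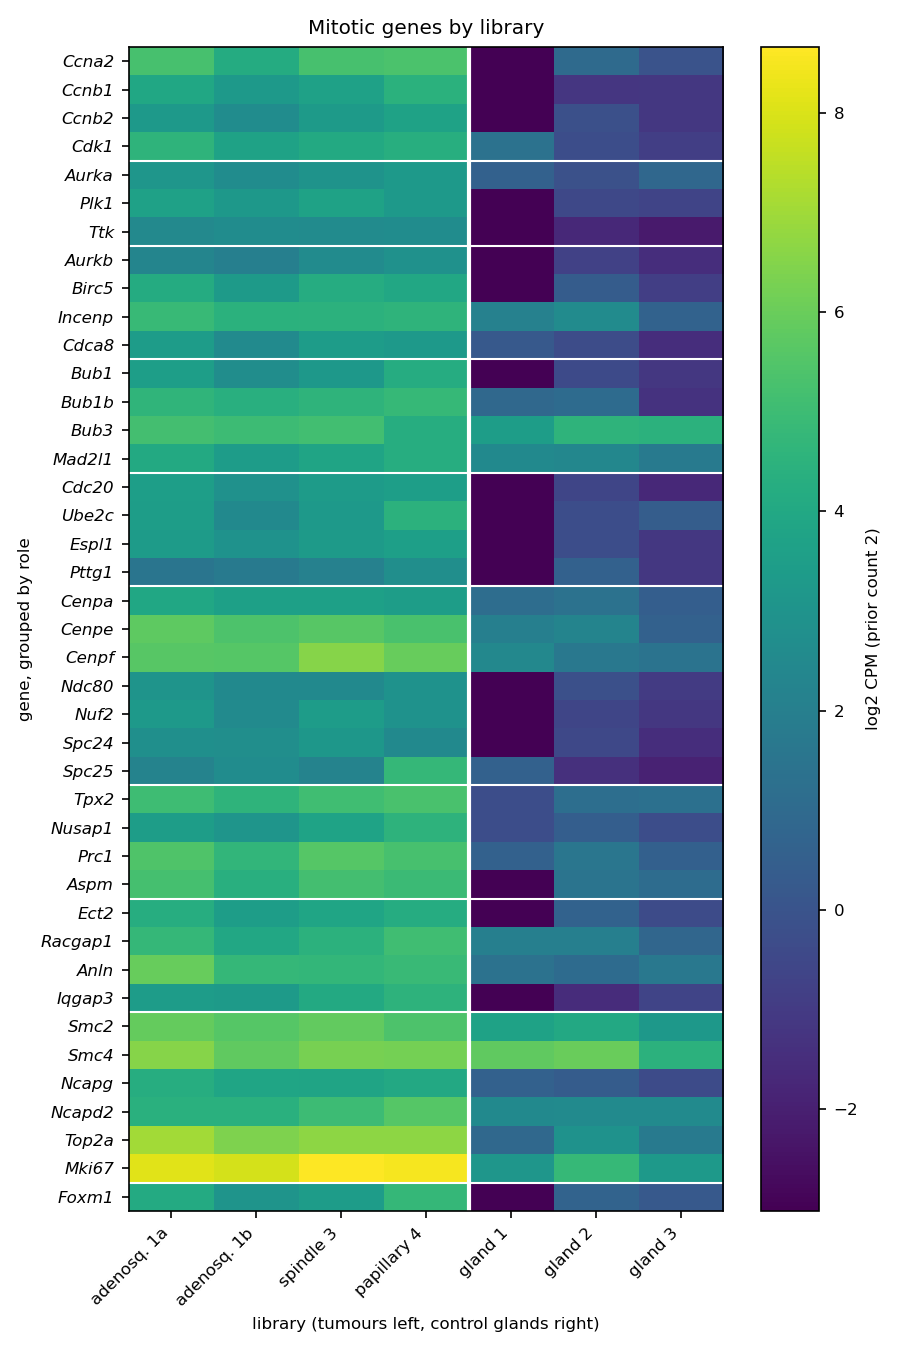
Level of each of the 41 mitosis genes in each library as log2 CPM, with the 4 tumours in the left columns, the 3 control glands in the right columns and the genes grouped by role. The tumour columns are high for nearly every gene, while Smc4 and Bub3 have the highest mean levels in the glands.

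Summed over the 41 genes, the level was 1310 CPM in adenosquamous tumour 1a, 941 CPM in adenosquamous tumour 1b, 1369 CPM in spindle cell tumour 3 and 1372 CPM in papillary tumour 4. It was 136.5, 201.6 and 104.7 CPM in glands 1, 2 and 3. The groups did not overlap. The mean was 1248 ± 207 CPM in the tumours (SD, n = 4) and 147.6 ± 49.4 CPM in the glands (SD, n = 3). That is 8.46 times as high in the tumours. Smc4 and Bub3, which did not pass, made up a larger part of the gland sums than of the tumour sums. They had means of 47.7 and 18.8 CPM in the glands, against 75.4 and 30.2 CPM in the tumours. The ratio of the sums without them was not computed.

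The number of calls depended on the glands. Without gland 3, 9 of the 41 genes rose, against 0.155% of all genes tested, although 38 were still higher at an unadjusted p under 0.05 (11.01% of all genes tested). Without gland 1 the number was 30 (0.974% of all genes tested) and without gland 2 it was 31 (1.24%). Leaving out a tumour left 34 without 1a (2.42%), 31 without 1b (1.25%), 32 without the spindle cell tumour (1.64%) and 37 without the papillary tumour (4.22%). The genes that passed whichever library was left out were Ccnb1, Cenpe, Cenpf, Tpx2, Prc1, Anln, Iqgap3 and Ncapg, 8 in all. With gland 2 as the only control, which is the gland with little muscle RNA, none of the 41 passed and none of all genes tested did. In that fit the median log2 fold change was 3.61, and 38 of the 41 were higher at an unadjusted p under 0.05, against 4.12% of all genes tested.

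The DNA before the starts of these genes is shown as a description. A link between these sequences and the levels in the tumours was not tested. Promoters in RefSeq's table for GRCm38.p6, each running from 250 bases before to 50 bases after a start, were matched for 34 of the 41 genes. The genes not matched were Ccna2, Smc4, Spc24, Aurkb, Tpx2, Foxm1 and Incenp. The 5 sequences below were chosen because they carry both motifs known from cell cycle promoters. Each is the 150 bases that end just before the start, written 5′ to 3′ on the gene's strand. Capitals mark CCAAT or its reverse complement ATTGG, the box bound by NF-Y, and TTTGAA or its reverse complement TTCAAA, the core of the cell cycle genes homology region (CHR) bound by MuvB complexes. They lie at chr10:69352913-69353062 (minus strand) for Cdk1, chr4:118437344-118437493 (minus strand) for Cdc20, chr15:102296143-102296292 (plus strand) for Espl1, chr11:99024190-99024339 (minus strand) for Top2a and chr7:135716380-135716529 (minus strand) for Mki67.
Cdk1: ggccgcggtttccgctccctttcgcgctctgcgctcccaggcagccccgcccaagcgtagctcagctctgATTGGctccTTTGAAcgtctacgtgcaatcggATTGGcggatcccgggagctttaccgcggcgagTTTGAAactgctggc
Cdc20: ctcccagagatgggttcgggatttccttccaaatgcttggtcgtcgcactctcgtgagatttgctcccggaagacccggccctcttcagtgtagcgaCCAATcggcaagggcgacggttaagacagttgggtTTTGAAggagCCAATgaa
Espl1: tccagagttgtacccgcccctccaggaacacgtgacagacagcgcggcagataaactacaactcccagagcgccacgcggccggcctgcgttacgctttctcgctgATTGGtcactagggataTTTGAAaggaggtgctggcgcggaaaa
Top2a: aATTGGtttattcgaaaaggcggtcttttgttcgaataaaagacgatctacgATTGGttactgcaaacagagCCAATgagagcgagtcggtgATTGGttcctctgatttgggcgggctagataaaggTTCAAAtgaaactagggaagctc
Mki67: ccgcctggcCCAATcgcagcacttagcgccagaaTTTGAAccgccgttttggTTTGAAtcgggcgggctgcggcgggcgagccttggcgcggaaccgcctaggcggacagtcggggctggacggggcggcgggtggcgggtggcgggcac

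Over the whole 300 bases, with both strands searched, CCAAT was found in 26 of the 34 promoters (76.5%), against 38.0% of the 27025 promoters in the table. TTTGAA was also found in 26 of the 34 (76.5%), against 18.2% of the table and 12.0% of the promoters of genes tested. Among 80 promoters of the other mitosis genes described below, the shares were 58.75% for CCAAT and 36.25% for TTTGAA. Both motifs were present in 23 promoters (67.6%, against 7.16% of the table) and neither in 5. A CCAAT match and a TTTGAA match shared a base in 1 promoter, that of Cdca8. TATAAA, the TATA box core, was found in 0 of 34, which allows a share of up to 10.3% (exact 95% interval), against 14.2% of the table and 7.21% of the promoters of genes tested. The variant core TTCGAA was found in 3 of 34 (8.82%, against 1.57%), and the E2F-type sites TTTGGCGC and TTTCGCGC in 1 each (2.94%, against 0.537% and 0.326%). These are matches of letters, not measured binding sites.

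Most TTTGAA matches lay near the start. Within 50 bases on either side of it, a window chosen after the positions were seen, TTTGAA occurred in 24 of 34 promoters (70.6%), against 4.95% of the table. In the 250 bases before the start alone it occurred in 13 of 34 (38.2%), against 16.3% of the table and 10.6% of the promoters of genes tested. CCAAT was more spread out, with a match within 50 bases of the start in 17 of 34 (50%, against 13.9% of the table). A match did not go with a call among the 41 genes in every case. Bub3, which did not pass, had CCAAT matches 74 and 32 bases before the start and TTTGAA 43 bases before it.

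**Figure D2:**
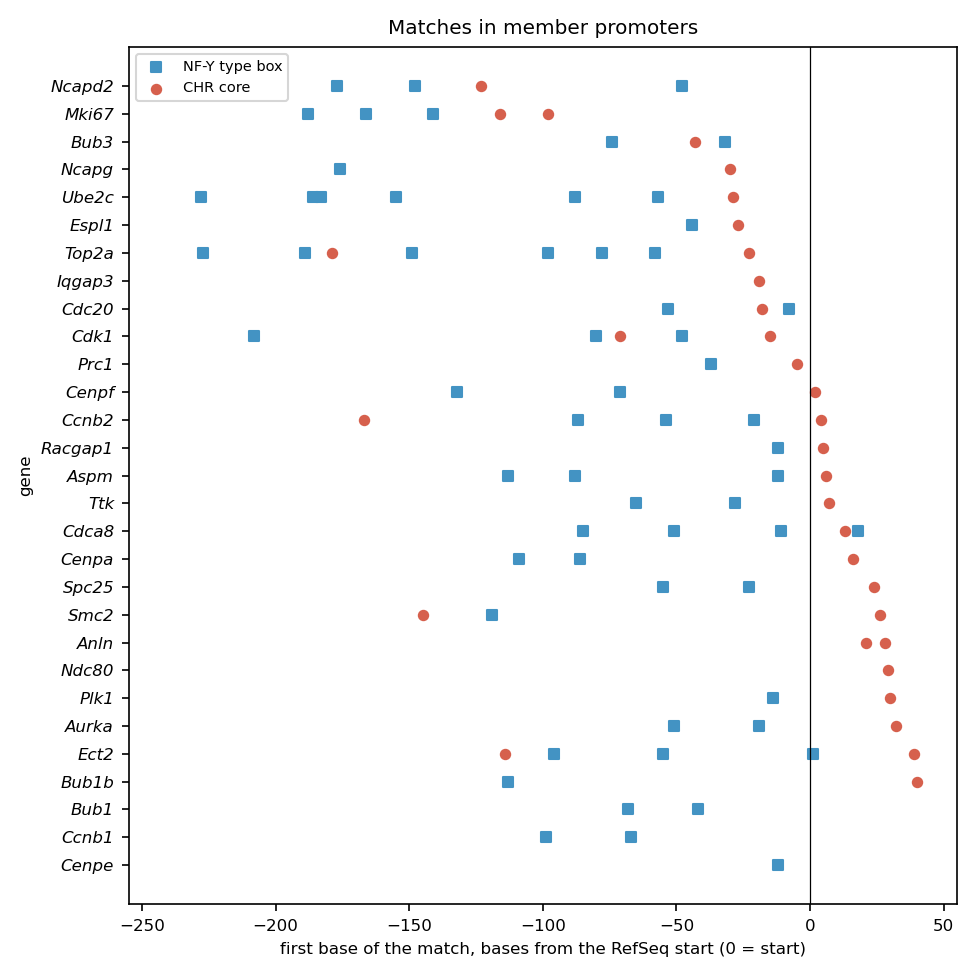
Position of CCAAT and TTTGAA matches in bases from the RefSeq start (0), with 1 line per gene. CCAAT is labelled as NF-Y type box and TTTGAA as CHR core, and the 5 matched promoters with neither are not drawn. Of the 34 matched promoters, 24 have TTTGAA within 50 bases of the start, and most CCAAT matches lie before it.

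All 4 genes of the cyclin and Cdk1 group rose in the tumours. Ccnb1, cyclin B1, the partner of Cdk1 at mitotic entry (chr13:100778650-100786570, GRCm38), had 15.1, 9.80, 12.6 and 21.4 CPM in tumours 1a, 1b, 3 and 4, against 0, 0.315 and 0.332 CPM in glands 1, 2 and 3. Each gland was far below the lowest tumour, and the log2 fold change was 5.68 ± 0.61 (SE; adjusted p = 0.00806), the highest of the 41 genes. Cdk1, the kinase itself (chr10:69335146-69352938), had 23.7, 13.1, 16.7 and 19.5 CPM in the tumours in the same order. It had 2.48, 0.725 and 0.427 CPM in the glands. Its log2 fold change was 4.20 ± 0.67 (adjusted p = 0.0148), and the adjusted p was 0.0544 without gland 2 and 0.0578 without gland 3. Ccna2, cyclin A2 of S phase and G2, rose by 4.94 on the log2 scale, and Ccnb2, cyclin B2, by 4.39. Both lost their calls without gland 3, and a near copy, Ccnb2-ps, is counted in the table, so the split of reads of Ccnb2 is uncertain.

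The other mitotic kinases, 3 genes, all rose. Ttk, the checkpoint kinase also called Mps1, had 5.36, 6.12, 6.01 and 6.13 CPM in tumours 1a, 1b, 3 and 4, against 0, 0.189 and 0.0948 CPM in glands 1, 2 and 3. Its level hardly differed between the tumour types, with a ratio of highest to lowest tumour of 1.14, the smallest of the 41 genes. The log2 fold change was 5.43 ± 0.59 (adjusted p = 0.00818). Plk1, the Polo kinase of mitotic entry and spindle assembly, had 12.7, 8.98, 13.0 and 9.30 CPM in tumours 1a, 1b, 3 and 4, against 0, 0.599 and 0.521 CPM in glands 1, 2 and 3, and rose by 4.54 ± 0.62 on the log2 scale (adjusted p = 0.0107). Aurka, the Aurora kinase of the spindle poles, was the one with the smaller change. It had 8.51, 6.26, 7.88 and 9.37 CPM in the tumours, against 1.41, 0.788 and 1.71 CPM in the glands, and rose by 2.64 ± 0.43 (adjusted p = 0.0156). All 3 lost their calls without gland 3 (adjusted p = 0.0516 to 0.0578), and Aurka also without gland 1.

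The chromosomal passenger complex, which corrects faulty attachments and starts cytokinesis, rose as a whole, 4 of 4 subunits. Aurkb, its kinase, had 4.85, 3.95, 6.01 and 7.28 CPM in tumours 1a, 1b, 3 and 4. It had 0, 0.473 and 0.237 CPM in glands 1, 2 and 3, a log2 fold change of 4.15 ± 0.67 (adjusted p = 0.0155). Birc5 (survivin) and Cdca8 (borealin), which place the complex on the centromere, rose by 4.55 and 3.96. Cdca8 had 10.6, 5.85, 10.5 and 9.79 CPM in the tumours, against 1.06, 0.693 and 0.237 CPM in the glands. Tumour 1b was the lowest of the tumours and still above each gland. Incenp, the scaffold, had 28.5, 21.9, 22.4 and 23.5 CPM in the tumours, against 4.24, 6.05 and 1.47 CPM in the glands, a log2 fold change of 2.62 ± 0.50 (adjusted p = 0.0245). None of the 4 kept its call without gland 3 (adjusted p = 0.0564 to 0.0911), and Incenp also lost it without gland 1, tumour 1b or the spindle cell tumour.

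Of the spindle checkpoint genes 3 of 4 rose. Bub1, the kinase that recruits checkpoint proteins to the kinetochore, had 11.3, 6.39, 9.06 and 18.2 CPM in tumours 1a, 1b, 3 and 4, against 0, 0.630 and 0.332 CPM in glands 1, 2 and 3. The log2 fold change was 4.76 ± 0.73 (adjusted p = 0.0132). Bub1b (BubR1), an inhibitor of the anaphase-promoting complex, rose by 4.22, and Mad2l1 (Mad2), another part of that inhibitor, by 1.69. Bub3, the adaptor that carries Bub1 and BubR1 to the kinetochore (chr7:131560222-131571895), did not pass. It had 35.4, 32.0, 34.5 and 18.9 CPM in the tumours, against 10.96, 23.6 and 21.9 CPM in the glands, a log2 fold change of 0.67 ± 0.36 (adjusted p = 0.258). The papillary tumour lay below 2 of the 3 glands, so the groups overlapped. Mad2l1 lost its call without any 1 of the 7 libraries (adjusted p = 0.0523 to 0.122), Bub1b without gland 1 and Bub1 without gland 3.

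Among the genes of the anaphase-promoting complex and of cohesin release, 3 of 4 rose. Cdc20, which activates the complex at anaphase, had 11.5, 7.35, 10.4 and 11.3 CPM in tumours 1a, 1b, 3 and 4, against 0, 0.536 and 0.190 CPM in glands 1, 2 and 3. The log2 fold change was 4.98 ± 0.68 (adjusted p = 0.0107). Espl1, separase, the protease that cuts cohesin, rose by 4.48, while its inhibitor Pttg1, securin, did not pass. Pttg1 had 2.72, 3.27, 4.24 and 6.59 CPM in the tumours, against 0, 1.39 and 0.332 CPM in the glands, a log2 fold change of 2.61 ± 0.84 (adjusted p = 0.0949), and its groups did not overlap. Ube2c, the ubiquitin-conjugating enzyme of the complex, rose by 3.95 ± 0.82 (adjusted p = 0.0307), but 22.8% of its exon bases are shared with Tnnc2, a skeletal muscle gene on the other strand. The kit did not mark strand, so reads of this pair cannot be told apart there. Ube2c had 0, 23 and 26 counts in glands 1, 2 and 3. Ncapg (13.4% of exon bases), Ccna2 (12.5%) and Prc1 (11.1%) are among other members that share exon bases with a coding gene on the other strand. Among the edgeR fits with all libraries or with 1 left out, Ube2c passed only with all and without the papillary tumour. Cdc20 and Espl1 lost their calls without gland 3.

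**Figure D3:**
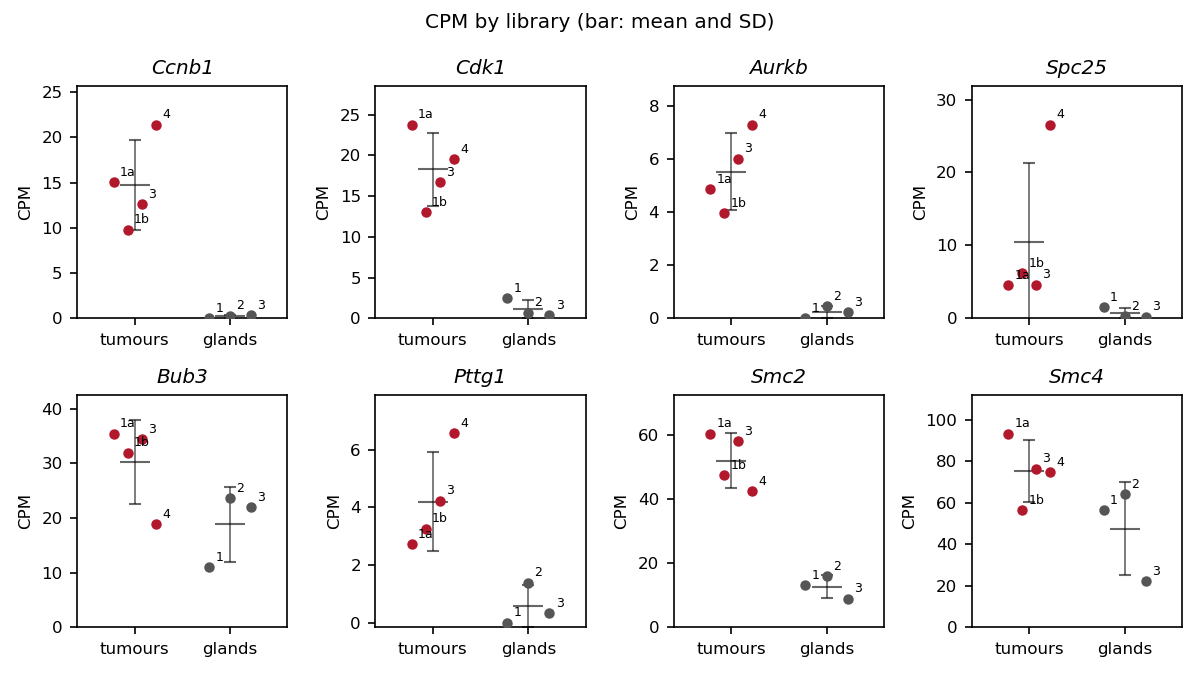
Level of 8 of the mitosis genes in CPM on linear axes, with tumours left of control glands, 1 numbered point per library and bars for the mean and SD. Tumour and gland points are far apart for Ccnb1, Cdk1 and Aurkb, they overlap for Bub3 and Smc4, and the papillary tumour (4) stands alone for Spc25.

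The kinetochore and centromere group rose in 6 of 7 genes. Cenpf, a large outer kinetochore protein of G2 and mitosis, had 49.1, 48.4, 93.9 and 61.2 CPM in tumours 1a, 1b, 3 and 4, against 5.31, 3.06 and 2.61 CPM in glands 1, 2 and 3. The spindle cell tumour was the highest, and the log2 fold change was 4.17 ± 0.43 (adjusted p = 0.00805). Cenpe, the motor that brings chromosomes to the spindle equator, rose by 3.81. Cenpa, the histone H3 variant of centromeres, rose by 2.70 ± 0.37 (adjusted p = 0.0109). It had 15.2, 12.1, 12.2 and 11.2 CPM in tumours 1a, 1b, 3 and 4, against 2.12, 2.49 and 1.28 CPM in glands 1, 2 and 3, with little spread among the tumours.

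The NDC80 complex is the rod of the outer kinetochore that holds microtubules. Of its subunits, Ndc80, Nuf2 and Spc24 rose by 3.81, 4.48 and 4.27 on the log2 scale. Spc25 (chr2:69193895-69206194) had 4.51, 6.12, 4.53 and 26.5 CPM in tumours 1a, 1b, 3 and 4. It had 1.41, 0.252 and 0.142 CPM in glands 1, 2 and 3. The papillary tumour stood apart from the other tumours, and the gene did not pass, with a log2 fold change of 4.70 ± 1.17 (adjusted p = 0.0507). Without the papillary tumour its log2 fold change was 3.63 (adjusted p = 0.0498). Per kilobase of exon, Spc25 was at 8.33 CPM in the papillary tumour and 1.42 to 1.92 CPM in the other tumours. Cenpa, Ndc80, Nuf2 and Spc24 lost their calls without gland 3 (adjusted p = 0.0564 to 0.106), and Ndc80 also without tumour 1b.

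The spindle genes all rose, 4 of 4. Prc1, which bundles microtubules of the central spindle, had 43.3, 25.2, 47.3 and 38.7 CPM in tumours 1a, 1b, 3 and 4. It had 1.41, 2.87 and 1.37 CPM in glands 1, 2 and 3. No gland came near a tumour, and the log2 fold change was 4.30 ± 0.43 (adjusted p = 0.00805). Tpx2, the activator of Aurora A on spindle microtubules, rose by 4.10, and Aspm, a spindle pole protein, by 4.11. Nusap1, a spindle microtubule-binding protein, had 10.98, 8.16, 13.2 and 22.96 CPM in the tumours, against 0.707, 1.26 and 0.711 CPM in the glands, highest in the papillary tumour, and rose by 3.89 ± 0.53 (adjusted p = 0.0107). Nusap1 and Aspm lost their calls without gland 3 (adjusted p = 0.0578 to 0.105), and Aspm also without gland 2, tumour 1b or the spindle cell tumour.

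The cytokinesis genes rose as well, 4 of 4. Anln, anillin, a scaffold of the contractile ring, had 61.4, 26.8, 26.2 and 29.4 CPM in tumours 1a, 1b, 3 and 4, against 2.48, 1.95 and 2.99 CPM in glands 1, 2 and 3. Tumour 1a was above the other 3 tumours, and the log2 fold change was 3.86 ± 0.45 (adjusted p = 0.00887). Iqgap3, a scaffold of the IQGAP family, had 10.1 to 22.9 CPM in the tumours and 0 to 0.521 CPM in the glands and rose by 5.57 ± 0.71 (adjusted p = 0.00982). Ect2, the exchange factor that activates RhoA at the division plane, rose by 4.20, and Racgap1, a subunit of the centralspindlin complex that binds Ect2, by 2.99 ± 0.45 (adjusted p = 0.0132). Racgap1 had 27.2, 15.6, 22.4 and 33.2 CPM in the tumours, against 3.89, 3.91 and 1.66 CPM in the glands. Ect2 and Racgap1 lost their calls without gland 3.

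Of the 6 genes of chromosome structure, 5 rose. Condensin is built on the pair Smc2 and Smc4, which act as 1 dimer, with Ncapd2 and Ncapg as subunits of condensin I. Smc2 had 60.3, 47.3, 57.9 and 42.4 CPM in tumours 1a, 1b, 3 and 4, against 13.1, 16.01 and 9.01 CPM in glands 1, 2 and 3, a log2 fold change of 2.03 ± 0.30 (adjusted p = 0.0119). Smc4 (chr3:69004738-69034623) had 93.4, 56.6, 76.6 and 74.9 CPM in the tumours, against 56.6, 64.1 and 22.2 CPM in the glands. The groups overlapped, with gland 2 above tumour 1b, and the log2 fold change was 0.66 ± 0.39 (adjusted p = 0.299). Per kilobase of exon, the ratio of Smc2 to Smc4 was 0.615, 0.796, 0.720 and 0.538 in the tumours, against 0.220, 0.237 and 0.385 in the glands, so Smc4 was the more abundant in every library and the partners were nearer to each other in the tumours. Ncapg had 19.1, 14.3, 13.9 and 15.99 CPM in the tumours, against 1.41, 1.17 and 0.664 CPM in the glands, and rose by 3.93 ± 0.40 on the log2 scale (adjusted p = 0.00805). Ncapd2 rose by 2.38, with 20.7 to 47.0 CPM in the tumours and 5.66 to 5.80 CPM in the glands.

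Top2a, topoisomerase II alpha, which untangles sister chromatids, had 133.4, 83.3, 100.6 and 101.1 CPM in tumours 1a, 1b, 3 and 4, against 1.77, 7.41 and 3.37 CPM in glands 1, 2 and 3. The log2 fold change was 4.58 ± 0.53 (adjusted p = 0.00882). Mki67, the coat protein of mitotic chromosomes used as the Ki-67 index, had 278.5, 240.0, 404.6 and 357.4 CPM in the tumours, against 8.49, 28.3 and 9.34 CPM in the glands, a log2 fold change of 4.37 ± 0.57 (adjusted p = 0.0101). It alone made up 21.3% to 29.6% of the summed CPM of the 41 genes in the tumours and 6.22% to 14.03% in the glands. Per kilobase of exon it was also the highest of the 41 genes in the tumours, at 31.8 ± 7.41 CPM (SD, n = 4), whereas in the glands Smc4 was, at 9.15 ± 4.29 CPM (SD, n = 3). Without gland 3 the calls of Smc2, Ncapd2, Top2a and Mki67 were lost (adjusted p = 0.0516 to 0.0766), and that of Ncapd2 also without gland 1 or gland 2.

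Foxm1, a transcription factor of G2 and mitosis genes (chr6:128362967-128376146), had 17.0, 8.03, 10.6 and 27.4 CPM in tumours 1a, 1b, 3 and 4. It had 0, 1.48 and 1.04 CPM in glands 1, 2 and 3. Its log2 fold change was 3.98 ± 0.81 (adjusted p = 0.0292). It kept its call only when the papillary tumour was the library left out, and otherwise the adjusted p was 0.0524 to 0.124.

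**Figure D4:**
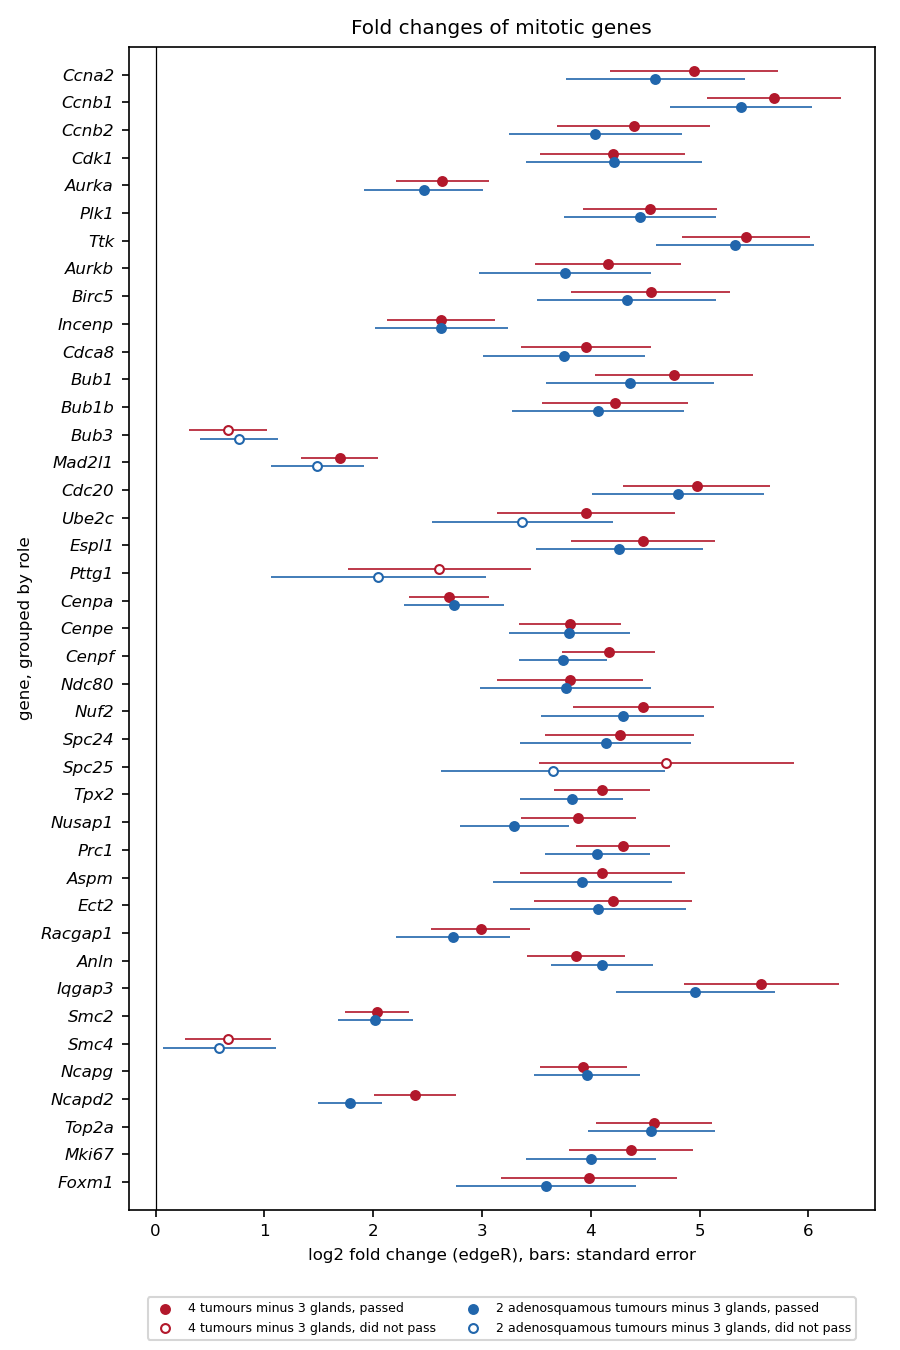
Log2 fold change of each of the 41 genes over the 3 control glands, with bars of 1 SE, for all 4 tumours (red) and for the adenosquamous tumours (blue). Filled points passed and open points did not, and all points lie above 0.

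Most of the genes also rose in the adenosquamous tumours taken alone. With tumours 1a and 1b set against the 3 glands, 35 of the 41 genes rose and 0 fell, against 5.01% of 14708 genes tested that rose, and the median log2 fold change was 3.92. The 6 that did not pass were Bub3 (adjusted p = 0.215), Smc4 (0.489), Mad2l1 (0.0801), Pttg1 (0.223), Ube2c (0.0559) and Spc25 (0.0756). The glands are the same as in the comparison of all tumours. The calls depended on single libraries. Without gland 3 (0% of all genes tested), tumour 1a (0.308%) or tumour 1b (0%) none of the 41 passed. At an unadjusted p under 0.05 there were 38, 36 and 37 higher in these fits, against 12.3%, 8.91% and 9.17% of all genes tested. Without gland 1, 21 passed (1.94% of all genes tested), and without gland 2, 34 passed (4.64%).

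Each of the 4 tumours had high levels of most of these genes. A level at least 2 log2 CPM above every gland was reached by 34 of 41 genes in tumour 1a, 32 in tumour 1b, 34 in tumour 3 and 36 in tumour 4. Of all genes tested, the shares were 4.21%, 4.87%, 3.76% and 5.11% in the same order. The ratio of the highest to the lowest tumour had a median of 1.82 over the 41 genes, and it was under 2 for 28 and under 3 for 38, beside a median of 2.35 over 13766 genes with counts in each tumour. Tumour 1b was the lowest of the tumours for 30 of the 41 genes (24.8% of all genes tested) and the highest for 0 (19.3%). The papillary tumour was the highest for 19 genes (32.4%), tumour 1a for 15 (24.8%) and the spindle cell tumour for 7 (23.4%). With 1 tumour of a type, differences between types have no replicate check.

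The tumours also differed in the tissue they held. The summed level of 7 squamous epithelial markers was 396 and 312 CPM in tumours 1a and 1b, 32.1 CPM in tumour 3 and 1.15 CPM in tumour 4, against 1.32 to 6.37 CPM in the glands, with Lor at 0 in every library. That of 6 luminal markers was 230.7 to 2279 CPM in the tumours and 352 to 791 CPM in the glands, highest in the papillary tumour. That of 5 basal markers was 29.3 to 1718 CPM in the tumours and 58.0 to 143.3 CPM in the glands. Among the glands, gland 2 was the highest for 29 of the 41 mitosis genes (31.6% of all genes tested), gland 1 for 6 (30.3%) and gland 3 for 6 (38%). Gland 2 also held the most RNA of 6 T and NK cell markers, 72.1 CPM, against 6.72 and 3.18 CPM in glands 1 and 3. It was also the highest gland for 6 B and plasma cell markers, at 90.3 CPM against 15.2 and 31.3 CPM, and for 6 macrophage markers, at 156 CPM against 104 and 113.9 CPM. The part of these cells in its level was not tested. Of the other lists, fibroblast markers summed to 197.6 to 4522 CPM in the tumours and 381 to 1179 CPM in the glands, and B and plasma cell markers to 2.86 to 366.6 CPM in the tumours and 15.2 to 90.3 CPM in the glands. Macrophage markers summed to 58.4 to 466.9 CPM in the tumours and 104 to 156 CPM in the glands, and erythroid markers to 3.27 to 35.7 CPM in the tumours and 46.3 to 305 CPM in the glands.

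Other genes of mitosis rose in part. Of 97 that are not among the 41 and all passed the filter on low counts, 39 rose, 0 fell and 58 did not pass. Without gland 3 the number was 4, namely Hmmr, Spag5, Sgo2a and Ckap2l, and with gland 2 as the only control it was 0. The highest share was among further spindle and midbody genes, 9 of 12, with a median log2 fold change of 4.41, among them Hmmr, a spindle-assembly protein (5.16, adjusted p = 0.00693), and Spag5, a spindle and kinetochore protein (5.36, adjusted p = 0.00805). Ckap5, a microtubule polymerase that also works outside mitosis, had a value of 0.13 (adjusted p = 0.798). Of 31 further kinetochore and checkpoint genes 16 rose, such as Cenpi of the inner kinetochore (3.70) and Sgo2a, a protector of cohesin at centromeres (3.16), while Zwint had a value of -0.11 (adjusted p = 0.782). Of 14 regulators of entry and exit 8 rose, such as the kinase Melk (5.34) and Cks2, a small Cdk-binding protein (3.65), while Wee1, the kinase that restrains Cdk1, had a value of 0.35 (adjusted p = 0.618). Cenpi, Melk and Cks2 lost their calls without gland 3 (adjusted p = 0.0564, 0.0564 and 0.0548).

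Most subunits of the anaphase-promoting, cohesin and DREAM complexes did not pass. Of 16 anaphase-promoting complex subunits and partners only Ube2s, its chain-extending enzyme, rose (1.41, adjusted p = 0.0375), and the median log2 fold change was 0.14. Anapc2, the cullin-type subunit, had a value of 1.21 (adjusted p = 0.0569) and Anapc13, a small subunit, of -1.02 (adjusted p = 0.128). Of 15 other condensin and cohesin genes 4 rose, namely Ncaph and Ncapg2, subunits of condensin I and II, and Cdca5 and Esco2, which secure cohesion in S phase. Their median was 0.07, and Stag2, a cohesin core subunit, had a value of -0.62 (adjusted p = 0.132). Of 9 DREAM and MuvB genes Mybl2, B-Myb, rose (4.34, adjusted p = 0.0225), while Rbl1 (p107) had a value of 1.41 (adjusted p = 0.0831) and Lin52 of -0.62 (adjusted p = 0.342). Ube2s and Ncapg2 lost their calls without any 1 of the 7 libraries, Mybl2 and Cdca5 without gland 3 (adjusted p = 0.107 and 0.0922), gland 1 or tumour 1b, Ncaph without any gland, tumour 1b or tumour 3, and Esco2 without any gland, tumour 1a or tumour 3.

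Of 18 paralogues of the 41 genes, 13 passed the filter on low counts and 0 passed the test by edgeR, with a median log2 fold change of 0.33. At an unadjusted p under 0.05 there were 3 higher and 2 lower, and DESeq2 called Plk4, Iqgap1 and Smc6 while limma-voom, and edgeR with at least 10 counts in every library, called Plk4. Top2b, topoisomerase II beta, which resting cells also make, had 110.7 to 172.7 CPM in the tumours and 115.9 to 246.2 CPM in the glands, and a value of -0.33 (adjusted p = 0.542), beside 4.58 for Top2a. Plk4, the kinase of centriole duplication, had a value of 1.62 (adjusted p = 0.0549), and Smc6, of the SMC5/6 complex, of -1.17 (adjusted p = 0.0744). Foxo1, a forkhead factor active in resting cells, also had -1.17 (adjusted p = 0.136).

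**Figure D5:**
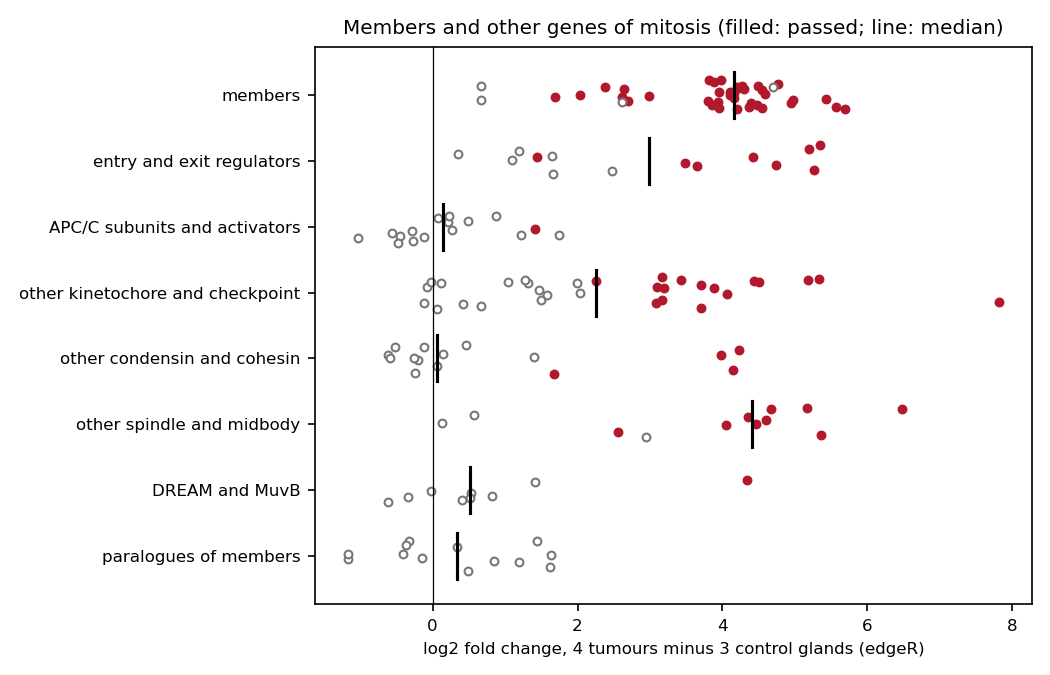
Log2 fold change, tumours over control glands, of the 41 mitosis genes (top row, members), the lists of other mitosis genes and the paralogues, with 1 point per gene tested, filled where it passed, and a line at each median. The 41 genes and the further spindle genes have medians above 4, and the anaphase-promoting complex and paralogue lists have medians near 0.

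Genes of DNA replication, which act earlier in the cycle, rose in 13 of 16 cases with a median log2 fold change of 2.48. Without gland 3, or with gland 2 as the only control, 0 of the 16 passed by edgeR, with 14 and 13 higher at an unadjusted p under 0.05, and leaving out any other library left 7 to 10. The summed CPM of the 41 mitosis genes over that of the replication genes was 2.99, 3.13, 3.62 and 2.49 in tumours 1a, 1b, 3 and 4, against 1.66, 2.04 and 1.19 in glands 1, 2 and 3. The groups did not overlap, with means of 3.06 ± 0.465 (SD, n = 4) in the tumours and 1.63 ± 0.426 (SD, n = 3) in the glands. Without Mki67 the means were 2.27 ± 0.301 in the tumours and 1.46 ± 0.345 in the glands. Smc4 and Bub3 were kept in all of these sums. Of the other mitosis genes with a promoter in the RefSeq table, 31 passed and 49 did not. Over the whole 300 bases, TTTGAA was found in 14 of the 31 (45.2%, exact interval 27.3% to 64.0%). It was found in 15 of the 49 (30.6%, exact interval 18.3% to 45.4%), and these intervals overlap. In the 250 bases before the start alone the shares were 25.8% and 24.5%. Within 50 bases of the start they were 41.9% and 16.3%. A difference between these groups was not tested.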

How the data were processed

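RNA-seq values of 4 ECD transgenic tumours and 3 control glands were analysed from 1 deposited table per library. Per the labels' protocols, RNA was extracted with Trizol and DNase and sequenced as paired reads from unstranded TruSeq v2 libraries. Tools named without roles are STAR 2.5, RSEM 1.3 and limma, with build GRCm38, per the submitters' processing notes. The deposited column headed TPM held the authors' expected counts: its sums ran from 5148438 to 35631279 and 2.34% to 6.14% of values were not whole. These were rounded to whole numbers. No column of another series was present.

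Groups came from the labels. The main test was edgeR 4.0.16 (R 4.3.3, quasi-likelihood F test, TMM scaling, filterByExpr with a minimum count of 10 and total of 15), two-sided, with Benjamini-Hochberg adjusted p under 0.05. It left 14149 genes for 7 libraries and 14708 for the adenosquamous comparison. SE is the absolute log2 fold change over the root of F. CPM values used TMM-scaled totals, and log2 CPM a prior count of 2. The method was run on simulated counts with 1 common dispersion for all genes. That is simpler than these data, so the run does not check the calls given here. Alternatives were limma-voom 3.58.1, DESeq2 1.42.0, other scalings and filters, and leaving out libraries. Libraries of 1 group differed beyond sampling noise (chi-square per degree of freedom 85.0 to 374.9), including tumours 1a and 1b (107.9).

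The members, the lists and the tests were chosen with earlier results of these data known. All 41 members could be named. Values in every library are given for the member of each role with the smallest adjusted p, that with the smallest fold change and a fixed set of 12. For each other list the 2 genes with the smallest adjusted p, the gene that changed most the other way and a few fixed genes were named. A list of 16 DNA replication genes served for a ratio of summed CPM. The genes Ncapg2, Iqgap1, Ckap2l and Ccnb3 were named after their values were seen. Genes with a pattern like that of Mki67 are not given, because tumours and glands form separate clusters. Gene positions and exon lengths came from GENCODE M21 on GRCm38. Intervals and floors of 3 counts cover counting error only.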

Additional observations from a re-analysis of the deposited data

Results flagged for a closer look

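Over the 4 tumours, 5 of the 41 mitosis genes and their summed level had 1 tumour whose gap to the nearest other tumour took a share of the whole range above Dixon's 95% critical value. Chance flags about 1 in 20 such groups. Ccna2 was low in adenosquamous tumour 1b, at 17.8 CPM beside 38.3 to 40.9 CPM in the other tumours. Cdca8 was also low there, at 5.85 CPM beside 9.79 to 10.6 CPM. So was the summed level of the 41 genes, at 941 CPM beside 1310 to 1372 CPM. Ttk was low in adenosquamous tumour 1a, at 5.36 CPM beside 6.01 to 6.13 CPM. Anln was high in tumour 1a, at 61.4 CPM beside 26.2 to 29.4 CPM. Spc25 was high in the papillary tumour, at 26.5 CPM beside 4.51 to 6.12 CPM. In each case the tumour still lay above every gland.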

How the results depend on the processing

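Of the 41 genes, 37 rose in all tumours, and with tumours 1a and 1b summed 32 rose (1.47% of all genes tested). The count stayed within 1.5 times of 37 except in 3 settings. It was 8 where at least 10 counts were needed in every library (10 genes tested), 9 to 37 when 1 library was left out, and 0 with gland 2 as the only control. Over all genes 1199 passed, against 3528 by DESeq2, 755 under that stricter filter, 97 to 1351 without 1 library, 533 with tumours 1a and 1b summed and 0 with gland 2 alone. Of the 97 other mitosis genes 39 rose, against 8, 4 to 36, 25 and 0 in the stricter filter, the leave-one-out, the summed and the gland 2 settings. In the adenosquamous comparison 1525 genes passed, against 3559 by DESeq2, 2508 with no filter and 0 to 1498 without 1 library. Of the 41 genes 35 rose there. Under the stricter filter 8 of the 10 tested rose, against 5.39% of all genes tested, and without 1 gland 0 to 34 of the 41 rose. TTTGAA was found in 38.2% of promoters when only the 250 bases before the start were searched, against 76.5%. No direction reversed. The filter's construction removes genes near 0 in the glands, and the other causes were not tested. The median log2 fold change of the 41 genes was 4.49 without gland 2 and 3.61 with gland 2 alone. Under the stricter filter the median in all tumours was 2.55, over the 10 genes tested there, and 3.52% of all genes tested rose.

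No paired analysis was possible because the labels number tumours and glands separately and name no shared animal, litter or batch. Leaving out 1 adenosquamous tumour leaves 1, which was assumed to vary like the glands, as gland 2 alone was assumed to vary like the tumours. Summing tumours 1a and 1b was not run in the adenosquamous comparison, where it would leave 1 tumour. The depth of gland 1, with 19 of the 41 genes at 0 counts, limits folds against it.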

Other observations

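Cyclin B3 (Ccnb3), a cyclin known mainly from meiosis and a relative of Ccnb1 and Ccnb2, had 66 counts (6.503 CPM) in the spindle cell tumour, 0 counts in each of the other 3 tumours, and 1, 0 and 0 counts in glands 1, 2 and 3. It did not pass the filter on low counts and was picked out after its values were seen. The spindle cell tumour was also the lowest tumour for Plk2, a Polo kinase of stress responses. Plk2 had 14.8 CPM there and 48.3, 99.2 and 114.9 CPM in tumours 1a, 1b and 4, against 17.2 to 29.4 CPM in the glands. With 1 spindle cell tumour these values have no replicate check.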
